A study of Mus musculus with 29 samples.

Results

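The 720 genomic positions bound by HA-tagged Brachyury in mouse fibroblasts were described here. They are all the peaks of the library labelled BRACHYURY-HA, out of 304922 peaks in 28 lists that belong to 24 constructs, as mapped by ChIP-seq. In each line NIH-3T3 cells, an established mouse fibroblast line, carried a transgene for 1 transcription factor with a C-terminal HA tag, and expression was induced overnight with 500 ng/ml doxycycline, an agent that every line received. Chromatin was fixed with 1% formaldehyde and precipitated with an antibody against the tag, so a forced, tagged protein and not an endogenous one was mapped. BRACHYURY-HA is 1 library with no replicate, and none of its shares has an error between libraries. The other constructs used for comparison were SOX2-HA, OCT4-HA, FOXA1-HA and BHLHB8-HA with 2 lists each, and CDX2-HA, DLX1-HA, DLX6-HA, DUXBL-HA, EBF1-HA, FOXA1_RR-HA and FOXA1_SW-HA (both FOXA1 mutants), HLF-HA, MAX-HA, NANOG-HA, PRR3-HA, RHOX11-HA, SIX6-HA, SOX15-HA, TEAD1-HA, THAP4-HA, TOX3-HA, ZFP319-HA and OCT4-HA expressed together with SOX2-YPET, with 1 list each. The files give the position of each peak in bp and no read number, so the depth of every library is unknown and intervals on shares are 95% exact binomial intervals that cover counting error over peaks only.

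Brachyury, encoded by the gene T, is the founding member of the T-box family of transcription factors. It is expressed in the primitive streak, the early mesoderm and the notochord of the embryo, where it is required for mesoderm and notochord to form, and it is not a factor that defines fibroblasts. The protein binds a short half-site, often as a palindrome of a pair of them, that holds the letters TCACACC on one strand. AP-1, the dimer of FOS and JUN proteins, binds TGASTCA (S is C or G) and marks many enhancers of fibroblasts, and the letters AACCAC are the core of the site of the RUNX family.

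The sequences below are shown because they hold the T-box letters, whose share was the highest in BRACHYURY-HA among the 28 lists. They are the central 200 bp of the 8 widest peaks with TCACACC outside sites of 10 or more constructs, read from the RefSeq assembly of GRCm38, 5′ to 3′ on the plus strand, with 1 window that touched an exon (in Prl7d1, a prolactin family gene) left out. Capitals mark TCACACC, or GGTGTGA where it lies on the minus strand, and the AP-1 sequence TGASTCA. The genes at these positions include Gipc2, which encodes a PDZ-domain protein, Nfia and Mitf, which encode transcription factors, Atp2b1, a calcium pump of the plasma membrane, and Cavin2, a protein of caveolae.
Gipc2 intron, chr3:152127305-152127504: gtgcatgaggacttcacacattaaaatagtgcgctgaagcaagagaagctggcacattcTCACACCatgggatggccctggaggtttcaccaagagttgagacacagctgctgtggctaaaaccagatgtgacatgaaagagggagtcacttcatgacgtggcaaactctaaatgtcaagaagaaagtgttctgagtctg
nearest to Zkscan3, chr13:21417675-21417874: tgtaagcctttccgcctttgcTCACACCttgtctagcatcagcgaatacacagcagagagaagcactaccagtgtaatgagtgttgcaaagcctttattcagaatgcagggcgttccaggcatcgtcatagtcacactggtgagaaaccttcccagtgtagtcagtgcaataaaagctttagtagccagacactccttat
9330175M20Rik intron, nearest to Cavin2, chr1:51265082-51265281: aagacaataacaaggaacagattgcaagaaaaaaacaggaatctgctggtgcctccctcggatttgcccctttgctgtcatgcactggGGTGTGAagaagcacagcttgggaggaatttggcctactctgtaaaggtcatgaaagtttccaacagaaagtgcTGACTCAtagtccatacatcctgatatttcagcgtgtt
Gfm1 intron, chr3:67450772-67450971: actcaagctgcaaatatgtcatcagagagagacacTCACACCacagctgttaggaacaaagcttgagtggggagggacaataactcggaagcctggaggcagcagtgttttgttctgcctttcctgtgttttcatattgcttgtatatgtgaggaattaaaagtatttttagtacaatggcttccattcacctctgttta
nearest to Atp2b1, chr10:98508553-98508752: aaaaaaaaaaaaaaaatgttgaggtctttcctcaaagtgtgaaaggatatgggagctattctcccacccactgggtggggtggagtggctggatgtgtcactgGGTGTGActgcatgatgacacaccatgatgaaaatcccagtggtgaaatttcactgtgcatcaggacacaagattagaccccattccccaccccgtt
Nfia intron, chr4:98004269-98004468: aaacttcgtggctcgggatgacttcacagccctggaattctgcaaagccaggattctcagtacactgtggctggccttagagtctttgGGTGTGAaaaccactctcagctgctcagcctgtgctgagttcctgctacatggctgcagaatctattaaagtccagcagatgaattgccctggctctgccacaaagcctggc
Mitf intron, chr6:97953031-97953230: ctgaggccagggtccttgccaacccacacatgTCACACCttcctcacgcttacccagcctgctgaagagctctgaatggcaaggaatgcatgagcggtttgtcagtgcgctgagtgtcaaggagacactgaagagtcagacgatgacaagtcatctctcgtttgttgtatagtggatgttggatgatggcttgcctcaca
Gm8165 intron, found with no other construct, chr14:43676361-43676560: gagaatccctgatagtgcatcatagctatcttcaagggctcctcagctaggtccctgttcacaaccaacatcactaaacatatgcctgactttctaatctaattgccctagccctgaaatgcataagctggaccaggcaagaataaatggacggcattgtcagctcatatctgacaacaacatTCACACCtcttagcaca
All 8 windows held TCACACC once. In 1 of them, nearest to Cavin2, the AP-1 sequence lay in the same window. The peak in Gm8165 was the only one of the 36 peaks without any other construct that held the 7 letters, and the other 7 windows were shared with 5 to 8 other constructs. The 12 widest peaks with the letters also included 3 intergenic ones, whose nearest starts were those of Rxfp2, a hormone receptor gene 61493 bp away, Erp27 at 15762 bp and Errfi1 at 45209 bp.

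BRACHYURY-HA had few peaks, and very few of them were its own. By number of peaks the list ranked 21 of 28, with 7 shorter lists. Touching peaks were joined across constructs into 168506 sites, and the number of other constructs at each BRACHYURY-HA peak was counted. Of the 720 peaks, 36 (5.00%, interval 3.53 to 6.86) were in no other construct, 55 (7.64%) were shared with 1 to 3 others, 309 (42.9%, interval 39.3 to 46.6) with 4 to 8 others and 320 (44.4%, interval 40.8 to 48.2) with 9 or more others. These last 320 lie at sites of 10 or more constructs with BRACHYURY-HA itself counted, and are called widely shared in the following. The remaining 400 are called peaks at other sites. The median BRACHYURY-HA peak was shared with 8 other constructs, and 594 (82.5%) with at least 5.

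The share of sites that held a BRACHYURY-HA peak rose with the number of other constructs there. It was 0.0117% of the 128609 sites with 1 other construct (15 sites), 2.30% of 13364 sites with 4 to 8 (308 sites), 25.4% of 1215 sites with 9 or more (309 sites) and 81.3% of 107 sites with 14 or more (87 sites). The last class is part of the one before it. The intervals of the other classes did not overlap. Of the 39 sites with 19 or more other constructs, 36 (92.3%, interval 79.1 to 98.4) held BRACHYURY-HA. Of the 726 widely shared sites of the whole series, 309 (42.6%) held a BRACHYURY-HA peak. This share is partly fixed by the definition, which counts BRACHYURY-HA itself. Of the 565 sites with exactly 9 other constructs, only the 76 that held BRACHYURY-HA are among the 726. Counted by other constructs alone, the share was the 25.4% given above for 9 or more. The share of BRACHYURY-HA peaks called widely shared depended on how overlap was counted: it was 39.2% by direct overlap without merging and 15.6% when a reciprocal overlap of 50% was required.

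**Figure D1:**
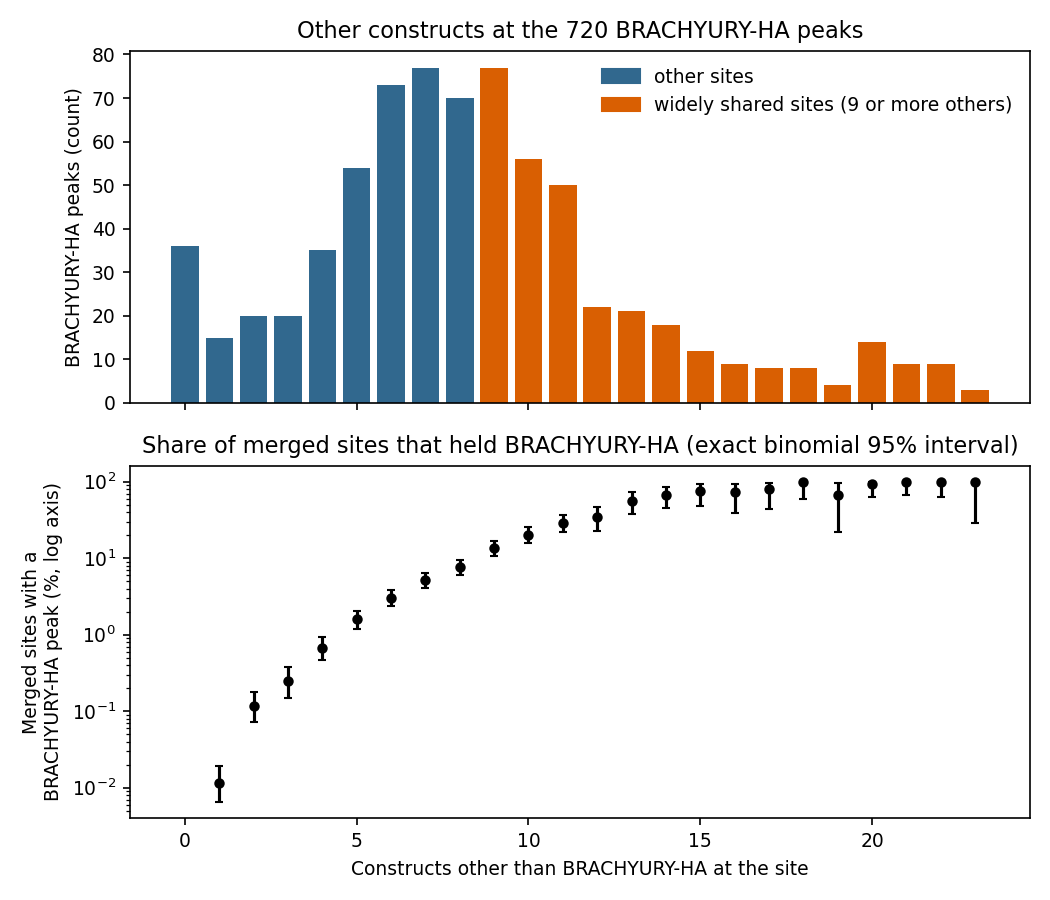
Upper panel: number of the 720 BRACHYURY-HA peaks (count, bars) by the number of other constructs with a peak at the same merged site, with the 320 peaks at widely shared sites in orange. Lower panel: share of merged sites (percent, log axis) with a BRACHYURY-HA peak, with exact binomial 95% intervals. The bars are highest between 6 and 9 other constructs, and the share climbs from 0.0117% at 1 other construct to 100% at 21 to 23.

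The gene of the factor itself held the widest peak outside widely shared sites. T (ENSMUSG00000062327) lies on the plus strand at chr17:8434423-8442496 of GRCm38. Its 3 peaks were at chr17:8436005-8436187 (183 bp, of which 77 bp lay in a coding exon and 106 bp in the intron before it), chr17:8436511-8436723 (213 bp, all intronic) and chr17:8440764-8441685 (922 bp, of which 93 bp were coding and 829 bp intronic). None of the 27 other lists had a peak in T. The nearest BRACHYURY-HA peak outside the gene was 4981460 bp away. None of the 3 central windows held TCACACC. A peak in the gene of the expressed factor was not particular to Brachyury: 15 of the 23 other constructs had 1 or more, among them DLX6-HA in Dlx6 (3476 bp wide), NANOG-HA in Nanog (1535 bp), SIX6-HA in Six6 (1492 bp) and SOX15-HA in Sox15 (660 bp). In Nanog and Sox15, as in T, no other construct had a peak. Other genes among the 15 held peaks of many constructs besides their own, as Ebf1 (14 others), Tead1 (12) and Hlf (10). The share of all genes with a peak of each list was not counted, so the 15 of 23 has no background. Reads from the transgene and reads from the chromosomal gene cannot be told apart in these files.

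**Figure D2:**
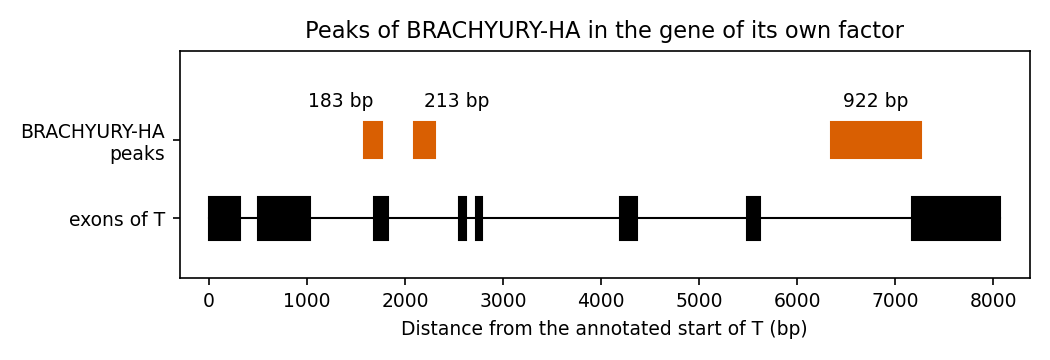
The 3 BRACHYURY-HA peaks (orange) and the exons (black) of the gene T, by distance from its annotated start (bp). The peaks of 183 bp and 922 bp reach into exons by 77 bp and 93 bp, and the peak of 213 bp lies within an intron.

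Peaks outside widely shared sites were mostly narrow and distal. The median width was 236 bp over all 720 peaks (173 to 1954 bp). It was 269 bp at widely shared sites and 220.5 bp at the others, a difference of 48.5 bp (permutation test of the medians over peaks, two-sided, p = 2e-05, the smallest that 100000 permutations can give). A wider peak also touches more peaks of other lists, and the part of this in the difference was not tested. Of the 71 peaks over 400 bp, 62 (87.3%) were widely shared. After T, the widest peak at other sites lay in Cox5b, a subunit of cytochrome c oxidase (687 bp, chr1:36692528-36693214), and it too was found with no other construct. The next were nearest to Gm47995 (622 bp, with 7 other constructs) and to Steap1, a metalloreductase family gene (605 bp, with 6). Plekha7, a protein of cell junctions, held one of 580 bp in an intron. An exon of AC125101.1 held one of 552 bp that also lay in Scd3, a fatty acid desaturase gene, and Gm13230 one of 472 bp. Thbs2, the extracellular matrix protein thrombospondin-2, was the nearest start to one of 427 bp (34217 bp away, with 7 others), and Mepe, a bone matrix phosphoprotein, to one of 403 bp. Gm35454, B230217O12Rik, Ust and Vgll4 had peaks of 398, 396, 389 and 389 bp. Ust encodes a sulfotransferase and Vgll4 a cofactor of TEAD factors.

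The 6 widest peaks at widely shared sites were an intergenic peak of 1954 bp whose nearest start was Sfi1, a centrosome protein gene, 65333 bp away, a peak of 1426 bp in Hnrnpa3, which encodes an RNA-binding protein, one of 1331 bp at the start of 4931408C20Rik, one of 1289 bp in the coding exons of Rps2, a protein of the small ribosomal subunit, one of 1240 bp in Hmgb1, a chromatin protein gene, and one of 1201 bp on chromosome Y, 15092 bp from Gm21860. Each was shared with 19 to 23 other constructs. At least 50% of the central window was soft-masked (repeats marked in the assembly) in 40 of 320 widely shared peaks (12.5%) and in 26 of 400 others (6.5%, Fisher's exact test over peaks, two-sided, p = 0.00627).

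Promoters took a small share of the peaks. Midpoints lay no further than 1 kb from a protein-coding transcript's start in 24 of 720 peaks (3.33%, interval 2.15 to 4.92), and 314 (43.6%) had their midpoint in an intron, 356 (49.4%) between genes and 13 (1.81%) in a coding exon. Starts lay over 100 kb away for 177 peaks (24.6%). The promoter share was 2.81% of widely shared peaks (9 of 320) and 3.75% of the others (15 of 400), a difference not detectable at these numbers (Fisher's exact test, two-sided, p = 0.537). Its sign was not stable: with 15 or more constructs as the limit the share was 2.28 percentage points higher at widely shared sites (p = 0.226 by the same exact test). Besides T and the genes named above, promoter peaks at other sites included, chosen after their values were seen, Runx1, a transcription factor of the RUNX family (279 bp, 126 bp from a start, with 6 others), Bicc1, an RNA-binding protein gene (325 bp, 201 bp from a start, with 7 others), and Tuba1b, a tubulin gene (264 bp, with 5 others).

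The peaks were unevenly spread over chromosomes. Chromosome 5 held 99 of them (13.8%), against 7.28% of all merged sites. The 4 densest intervals of 1 Mb, picked after their values were seen, held 29 peaks at 15 to 16 Mb of chromosome 5, 19 at 115 to 116 Mb of chromosome 12, 18 at 20 to 21 Mb of chromosome 8 and 16 at 3 to 4 Mb of chromosome 11. Of these, 18, 10, 14 and 13 were widely shared. The chromosome 8 block from 19 to 21 Mb held 3.33% of BRACHYURY-HA peaks and 0.0902% of merged sites. Chromosome X held 4 peaks and chromosome Y 3. The median gap between neighbouring peaks was 944404 bp, and 84 peaks lay within 10 kb of the next.

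The same few constructs met BRACHYURY-HA at most of its positions. BHLHB8-HA replicate 1 overlapped 81.5% of the 720 peaks, SOX2-HA replicate 1 and DLX6-HA 79.6% each, and DLX1-HA 73.2%, while SIX6-HA overlapped 58.9% and SOX15-HA 58.3%. These are long lists: the overlapping peaks were 1.26% of those of BHLHB8-HA replicate 1, 2.30% of SOX2-HA replicate 1 and 2.74% of DLX6-HA. BHLHB8 is a basic helix-loop-helix factor, SOX2 and SOX15 are SOX factors with an HMG box, and DLX1, DLX6 and SIX6 carry homeodomains. The list of TEAD1-HA, a TEA-domain factor with 14959 peaks, overlapped 3.06% of BRACHYURY-HA peaks (22 peaks). Short lists gave larger shares of their own: 44.4% of NANOG-HA peaks and 76.9% of the peaks of OCT4-HA replicate 2 overlapped one of BRACHYURY-HA. At other sites, 217 of 400 peaks (54.3%) had SOX2-HA, BHLHB8-HA, DLX6-HA and DLX1-HA all present, and 56 (14%) had none of them. These constructs are the most frequent at the same peaks. How often they occur together at sites of like breadth without BRACHYURY-HA was not counted. The counts therefore have no background, and a preference of BRACHYURY-HA for this set was not tested.

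To ask which constructs were met more often than elsewhere, sites below 10 constructs were compared by whether they held BRACHYURY-HA (363 sites with, 167381 without). By Fisher's exact test with Benjamini-Hochberg adjustment over the 23 constructs, 18 of 23 (78.3%) were higher at BRACHYURY-HA sites and 1, TEAD1-HA, was lower (1.65% against 8.89%). The number of constructs at a site raises all these shares at once. Among sites with exactly 1 other construct, where 15 held BRACHYURY-HA, only RHOX11-HA was higher by the same exact test (4 of 15 against 0.918% elsewhere, adjusted p = 0.000207).

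The comparison was therefore repeated within sites of the same number of other constructs, a test added after the data were seen (Mantel-Haenszel chi-square test over 8 classes, adjusted over 23 constructs). Of 23 constructs, 4 (17.4%) were then higher and 4 lower. The homeodomain factor NANOG-HA was at 21 of 363 BRACHYURY-HA sites (5.79%) and at 0.0789% of the other sites, with an odds ratio within classes of 5.94 (interval 3.60 to 9.79, chi-square adjusted p = 8.43e-14). NANOG-HA is a short list. Of the other constructs with lists shorter than BRACHYURY-HA, PRR3-HA had 6.51, FOXA1_RR-HA 2.89, OCT4-HA 2.28 and FOXA1_SW-HA 1.11, none past the threshold. THAP4-HA, also shorter, was at none of the 363 sites, which allows up to 0.826%. The part of list length in these odds ratios was not tested. SOX15-HA had an odds ratio of 1.79 (1.41 to 2.27, chi-square adjusted p = 1.64e-05) and SIX6-HA one of 1.64 (1.29 to 2.07, adjusted p = 0.000238). SOX2-HA followed at 1.63 (1.16 to 2.29, chi-square adjusted p = 0.0130). Lower were TEAD1-HA at 0.199 (0.0887 to 0.447, chi-square adjusted p = 0.000117), MAX-HA at 0.462 (0.324 to 0.658, adjusted p = 0.000117), ZFP319-HA at 0.547 (0.367 to 0.814, adjusted p = 0.0125) and BHLHB8-HA at 0.568 (0.407 to 0.792, adjusted p = 0.00471). BHLHB8-HA was thus the most frequent companion, at 84.8% of sites, and still met less often than at sites with as many other constructs but no BRACHYURY-HA. Each class fixes the number of other constructs at a site, so higher shares of some constructs go with lower shares of others. The 4 lower odds ratios are therefore not independent of the 4 higher ones, and avoidance of these constructs was not tested. Promoter sites changed part of this list. Outside promoters 4 of 23 (17.4%) were again higher: NANOG-HA (5.89), SIX6-HA (1.66), SOX15-HA (1.66) and RHOX11-HA (2.20, chi-square adjusted p = 1.47e-05). SOX2-HA (1.15, chi-square adjusted p = 0.625) and TEAD1-HA (0.609, adjusted p = 0.601) no longer passed, and DUXBL-HA joined the lower ones at 0.687.

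**Figure D3:**
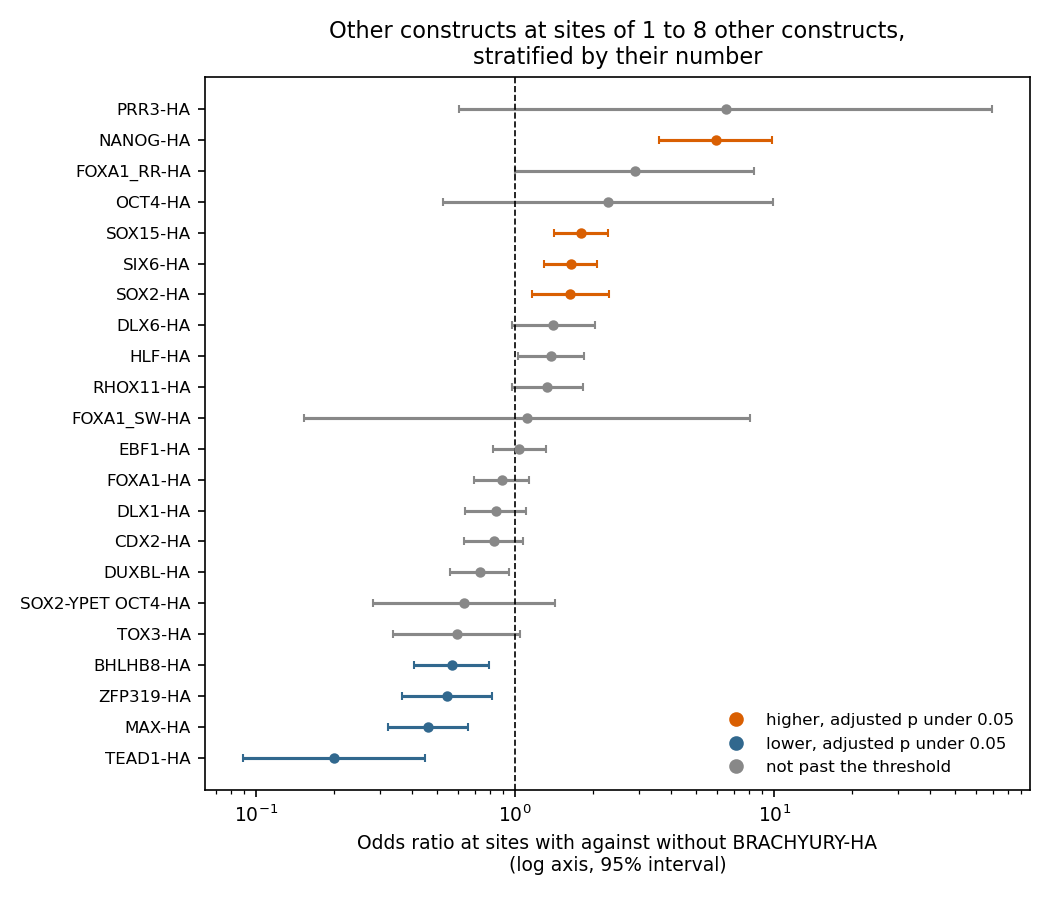
Odds ratio (log axis, with 95% interval) of each construct at sites with against sites without BRACHYURY-HA, among sites of 1 to 8 other constructs and stratified by their number. THAP4-HA, at none of the 363 sites (which allows up to 0.826%), is not drawn. NANOG-HA, SOX15-HA, SIX6-HA and SOX2-HA (orange) lie above 1, and BHLHB8-HA, ZFP319-HA, MAX-HA and TEAD1-HA (blue) lie below.

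The T-box half-site was found in the middle of the peaks more often than beside them. The central 200 bp of the 400 peaks at other sites held TCACACC on either strand in 27 (6.75%, interval 4.50 to 9.67), against 6 of 362 flanking windows, taken 5 kb downstream and free of peaks in all lists (1.66%, Fisher's exact test over windows, two-sided, p = 0.000533, adjusted p = 0.00213 over 16 named sequences). Of these 16 sequences, 5 (31.2%) were higher in peaks than in flanks. Besides the half-site they were AP-1 (24% against 3.31%, exact adjusted p = 1.22e-16), CAGCTG, an E-box of basic helix-loop-helix factors (16.8% against 5.80%), CATTCC, the TEAD site (19.3% against 10.2%), and ACAATG, a SOX site (16.5% against 10.5%). TAATTA of homeodomains, CCAAT and the repeat CACACACA were lower in peaks. The CA repeat, which shares letters with the half-site, stood at 2.00% in peaks and 5.25% in flanks. The longer TCACACCT was in 5 of 400 peaks and in none of 362 flanks, a count that allows up to 0.829% (exact test, p = 0.0632), and the inner letters ACACCT did not differ detectably (10.0% against 11%, exact test, p = 0.638). At widely shared sites TCACACC was in 15 of 320 peaks (4.69%) and 2.1% of flanks (exact test, p = 0.118). In the 36 peaks without any other construct it was in 1 (2.78%, interval 0.0703 to 14.5), and in peaks with 4 to 8 others in 24 of 309 (7.77%, interval 5.04 to 11.3).

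Among the 28 lists, BRACHYURY-HA had the highest share of peaks with TCACACC, 42 of 720 (5.83%, interval 4.24 to 7.80), where the others ran from 1.27% to 4.76% with a median of 2.77%. It was also first for the 6 letters TCACAC, with 152 peaks (21.1%, interval 18.2 to 24.3) against 7.67% to 17.3% elsewhere. The lists nearest in the ranking, FOXA1_SW-HA and FOXA1_RR-HA for 7 letters and OCT4-HA replicate 2 for 6, hold 147, 151 and 52 peaks, and their intervals overlap with that of BRACHYURY-HA. For TCACACCT it ranked 5, and for AP-1, at 20.3%, it ranked 12. First rank was not particular to the T-box letters. BRACHYURY-HA was also first for the RUNX letters AACCAC, at 24.9% against 3.81% to 23.7% elsewhere. As a background of the same window length, TCACACC was in 12 of 648 flanks of all BRACHYURY-HA peaks (1.85%). It is in 1307 of the 32851 RefSeq promoters of 300 bp (3.98%). Those windows are longer, and only 3.33% of the peaks lay at promoters, so the 2 shares are not of like kind.

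**Figure D4:**
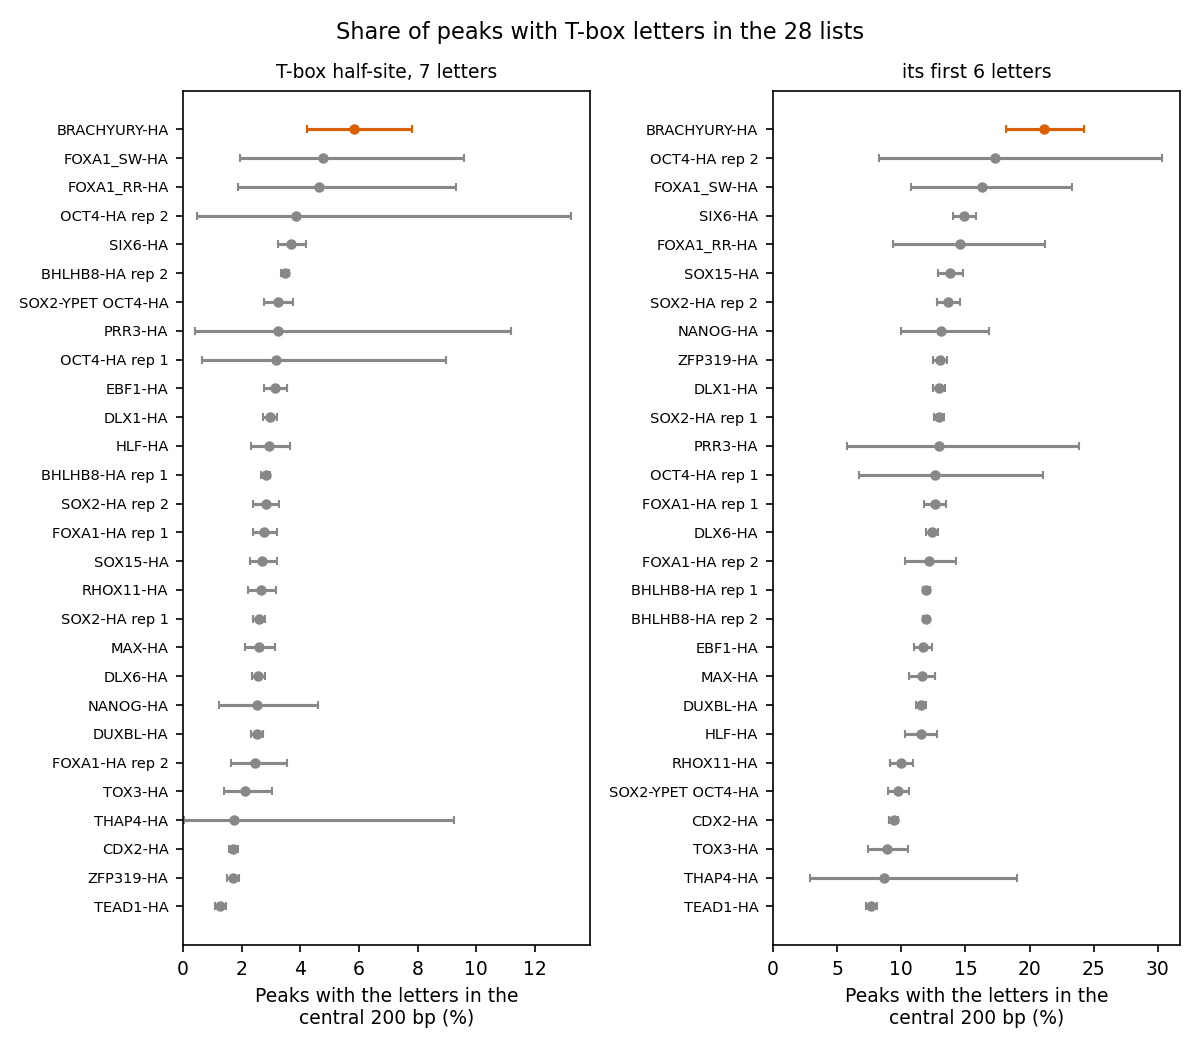
Share of peaks (percent, exact binomial 95% interval) with the T-box half-site of 7 letters (left) and its first 6 letters (right) in the central 200 bp, for the 28 lists in order of the share. BRACHYURY-HA (orange) is at the top of both, at 5.83% and 21.1%.

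A scan of all 2080 sequences of 6 letters, both strands counted as 1, gave the half-site letters among others. In peaks at other sites 47 of 2080 (2.26%) were higher than in flanks and 26 lower by the exact test with Benjamini-Hochberg adjustment. GAGTCA (33.5% against 9.67%) and GACTCA (29.3% against 8.84%) are parts of the AP-1 site. AACCAC (27.0% against 8.84%), ACCACA (33.0% against 13.8%), CCACAG (33.8% against 16.0%) and CCACAA (24% against 9.94%) hold the RUNX letters or overlap with them. GTGTGA, or TCACAC on the other strand (24.8% against 10.8%, exact adjusted p = 9.98e-05), is part of the T-box half-site. TGTGAA, or TTCACA (32.0% against 14.9%), shares 5 letters with TCACACC, the form of the half-site searched here, and starts before it. AATATA and TATATA were lower in peaks. Peaks had a higher G and C content than flanks, 45.9% ± 5.96 (SD, 400 windows) against 42.9% ± 7.25 (SD, 362 windows), and its part in these counts was not tested.

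Sites with BRACHYURY-HA were also compared with sites of the same breadth without it, a comparison added after the data were seen. The sites were matched in breadth only, and not in promoter position or in G and C content. Windows of 200 bp were set at the median midpoint of the other constructs' peaks, so that the BRACHYURY-HA peak did not place them. At sites with 4 to 8 other constructs, 13 of 2080 sequences (0.625%) were higher in the 308 sites with BRACHYURY-HA than in the 13056 without, and 12 were lower. The sequence with the lowest p was TTCACA (27.9% against 14.4%, exact test, adjusted p = 3.17e-06), followed among the higher ones by TCACAC (23.4% against 13%, adjusted p = 0.000604), CACACT (25.6% against 15.1%) and TTTCAC (19.5% against 10.3%), which share letters with each other. AAACCA (30.8% against 20.1%) and AACCAC (27.9% against 18.5%, exact adjusted p = 0.0141) were also higher. No difference was detected in the AP-1 letters, with GAGTCA at 39.6% against 38.0% (adjusted p = 0.883 by the same exact test). Of the 12 lower sequences, 11 were rich in G and C, such as GGGCCC at 0 of 308 sites, which allows up to 0.974%, against 5.09%. The part of G and C content and of promoter position in this scan, for the higher sequences too, was not tested.

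Stratified by number of other constructs, TCACAC had an odds ratio of 2.00 (interval 1.55 to 2.57, Mantel-Haenszel chi-square p = 7.77e-08) at the 363 sites with 1 to 8 others, and of 1.63 (1.11 to 2.41, p = 0.0168) at 282 sites with 9 to 22 others. The 7 letters TCACACC had 1.75 (1.06 to 2.88, chi-square p = 0.0402) and 2.01 (0.989 to 4.10, p = 0.0791). With windows at the centre of the merged site the first of these fell to 1.45 (chi-square p = 0.235), and without replicate 1 of the duplicated constructs it was 1.60 (p = 0.0635). For AP-1 the odds ratio was 0.919 (0.726 to 1.16, chi-square p = 0.524) and for CAGCTG 0.655 (0.486 to 0.882, p = 0.00616) at sites with 1 to 8 others. At sites with 9 to 22 others CAGCTG had 0.782 (0.526 to 1.16, chi-square p = 0.258), and by the exact test at sites with 4 to 8 others it did not pass (14.9% against 20.6%, adjusted p = 0.237). The RUNX letters AACCAC had 1.48 (1.16 to 1.88, chi-square p = 0.00211) at sites with 1 to 8 others. With 9 to 22 others they had 1.21 (0.867 to 1.69, chi-square p = 0.295). Outside promoters TCACAC had 1.89 (chi-square p = 1.49e-06) at sites with 1 to 8 others, and AACCAC was not counted there.

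TCACAC was in the central 200 bp of BRACHYURY-HA peaks more often than in that of SOX2-HA, SOX15-HA and BHLHB8-HA peaks at the same positions. For each of 8 constructs with at least 100 overlapping peaks at other sites, the central 200 bp of both peaks of a pair were read (exact McNemar test over pairs, two-sided, adjusted over 24 tests, added after the data were seen). For SOX2-HA, BHLHB8-HA and FOXA1-HA the peaks of both lists were first merged, so their windows can lie off the centre of a called peak. The part of this in the differences was not tested. In 296 pairs with SOX2-HA, TCACAC was in 28% of the BRACHYURY-HA windows and 20.9% of the SOX2-HA windows, and 30 pairs had it only in the first against 9 only in the second (exact adjusted p = 0.00852). In 150 pairs with SOX15-HA the shares were 32.0% and 22%, with 16 pairs against 1 (exact adjusted p = 0.0033), although the midpoints lay only 39 bp apart at the median. With BHLHB8-HA they were 27.9% and 21.6% in 305 pairs (exact adjusted p = 0.0268). DLX6-HA (27.6% and 22.4%, exact adjusted p = 0.05002), SIX6-HA, EBF1-HA, FOXA1-HA and DLX1-HA did not pass, and in all 8 constructs the share was higher in the BRACHYURY-HA windows. AP-1 passed the test only against BHLHB8-HA (28.5% and 18%, 48 pairs against 16, exact adjusted p = 0.00186). There the midpoints lay 88 bp apart at the median, and the difference was thus not limited to T-box letters. Within the peaks at other sites, TCACAC was in 38 of 400 (9.50%) in the first 50 bp to the right of the midpoint and in 1.25% to 4.75% of peaks in every 50-bp bin beyond 100 bp.

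**Figure D5:**
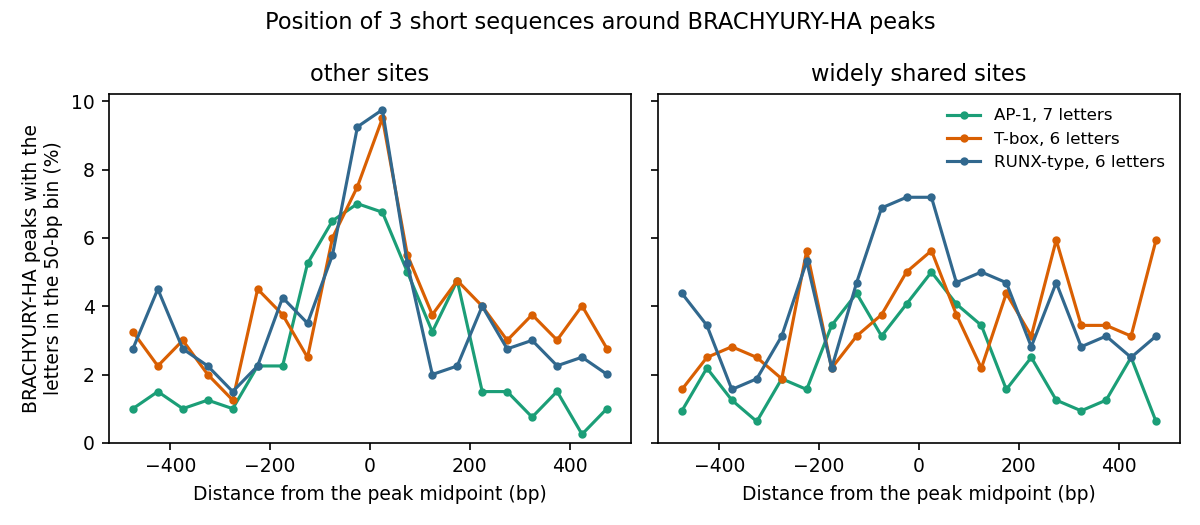
Share of BRACHYURY-HA peaks (percent) with AP-1 (green), T-box (TCACAC, orange) or RUNX-type letters (AACCAC, blue) in each 50-bp bin by distance from the peak midpoint (bp), for 400 peaks at other sites (left) and 320 at widely shared sites (right). At other sites all 3 rise towards the midpoint, TCACAC to 9.50%. At widely shared sites TCACAC is at 5.63% in the bin to the right of the midpoint, no higher than the 5.94% in the bin from 250 to 300 bp.

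No association of T-box with AP-1 letters was detected: TCACAC was in 25% of the 96 peaks with AP-1 and in 24.7% of the 304 without (Fisher's exact test, p = 1). Either was present in 171 of 400 peaks (42.8%) and in 13.5% of flanks. Of the 27 peaks with TCACACC at other sites, 8 also held AP-1, 5 lay within 10 kb of a start and 7 over 100 kb from one.

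BRACHYURY-HA was also set beside lists of near size (Fisher's exact test over peaks, two-sided, adjusted over 9 comparisons). TCACACC was in 5.83% of its peaks against 2.46% of 1099 for FOXA1-HA replicate 2, 2.92% of 2635 for HLF-HA and 2.53% of 396 for NANOG-HA (adjusted p = 0.000573, 0.000573 and 0.0129 by the same exact test). The promoter share of 3.33% was below 6.55% for FOXA1-HA replicate 2 and 9.15% for HLF-HA, and beside 3.54% for NANOG-HA (exact adjusted p = 0.864). TOX3-HA, with 1286 peaks, was added later as a list nearer in size, and it had 38.6% at promoters and 2.1% with TCACACC. At sites of 10 or more other constructs lay 243 BRACHYURY-HA peaks (33.8%), 206 of NANOG-HA (52.0%), 185 of FOXA1-HA replicate 2 (16.8%), 183 of TOX3-HA (14.2%) and 307 of HLF-HA (11.7%). Since such sites are few in number, these shares fall as a list grows longer. The exact tests of the shares are among the 9 comparisons of the adjustment, but the shares are given here as a description only. The lists share positions, so their peaks are not independent.

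Genes near the peaks were counted by list. Of 21853 protein-coding genes, 156 (0.714%) had a BRACHYURY-HA peak within 10 kb of a start, and 88 (0.403%) had one outside widely shared sites. Of 44 mesoderm and primitive streak genes 1 (2.27%), T itself, did, and of 19 notochord genes T and Bicc1. The T-box family (17 genes) gave T alone. No gene did in the lists of epithelial-mesenchymal transition (24 genes), actin and contractile proteins (23), serum-response and AP-1 genes (24) or the WNT, FGF and BMP pathways (38). In collagens and matrix, Has2, the hyaluronan synthase gene, was the only one of 33, with a widely shared peak 8718 bp from its start. Among 23 genes of the expressed factors it was T again. These small counts have wide intervals, 0.0575% to 12% for mesoderm and 1.30% to 33.1% for notochord, and a count of 0 allows up to 7.89% of the signalling genes and 12.5% of the list of epithelial-mesenchymal transition. Within 100 kb, where 1264 genes (5.78%) had a peak, the counts were 4 of 44 for mesoderm, 4 of 19 for notochord, 2 of 17 for the T-box family, 4 of 33 for matrix and 4 of 38 for the signalling pathways. Members reached at that distance, named after their values were seen, included Tbx4, a T-box factor of the hindlimb (66358 bp, with 8 other constructs), Meox1, a homeobox factor of somites (86942 bp, with 7), Sox9, a factor of cartilage (67904 bp, widely shared) and Fgf2, a fibroblast growth factor (34778 bp, with 6).

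Of 92 ribosomal protein genes, 6 (6.52%, interval 2.43 to 13.7) had a peak within 10 kb of a start, beside 0.714% of all protein-coding genes. Outside widely shared sites the count was 0 of 92, which allows up to 3.26%, beside a background of 0.403%. Among them were Rpl7a with 2 peaks (the wider of 557 bp with 20 other constructs), Rps2 (1289 bp, with 23), Rpl21 (888 bp, with 20), Rpl17 (670 bp, with 14) and Rpl3l, which is reached by the same peak as Rps2. Of 67 histone genes only Hist4h4 had a peak, 236 bp wide and shared with 9 others.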

How the data were processed

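ChIP-seq libraries of NIH-3T3 lines that express HA-tagged factors were sequenced by the authors as paired-end reads of 37 nt, aligned to mm10 with STAR 2.5.3a keeping unique alignments, and cleared of duplicates with Picard. Peaks were called per sample by MACS2 2.1.1.20160309, and those that overlapped with input peaks or blacklisted regions were discarded. The deposited files hold positions only (other values, such as counts or scores, are not in them), so depth could not be used. Samples were grouped by their labels, and the input library was not used here.

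Peaks of all lists that overlapped or touched were merged into sites. An overlap between lists was counted from 1 bp, unless stated otherwise. Genes and exons came from GENCODE vM21, and sequence, with promoters, from RefSeq (GRCm38). Windows were the central 200 bp of each peak, and flanks lay 5 kb downstream without touching a peak. Shares were compared by Fisher's exact test, medians by permutation (100000 resamples), and classes of equal breadth by the Mantel-Haenszel test, with Benjamini-Hochberg adjustment and a threshold of 0.05. Peaks, windows and sites are not replicates of the experiment, so p-values describe the lists and not other cultures. Python 3.11.15, NumPy 2.4.6, SciPy 1.17.1, statsmodels 0.14.6, pysam 0.24.0 and Matplotlib 3.10.9 were used, and the procedures were tested on simulated data.

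Genes were named if they were T, lay at the 12 widest peaks at other sites, the 6 widest at widely shared sites or the 12 widest with TCACACC at other sites, or belonged to a gene list and had a peak within 10 kb. The 10 sequences with the lowest p and all constructs called were also named. A gene that met this rule is not reported here. The peaks and the gene lists were chosen with earlier results of these data known.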

Additional observations from a re-analysis of the deposited data

How the results depend on the processing

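The share of peaks at widely shared sites (44.4%) was 87.4% with 5 or more constructs, 13.1% with 15 or more, 33.8% with 10 or more besides BRACHYURY-HA, 39.2% by direct overlap and 15.6% by reciprocal overlap of 50%, and without replicate 1 or 2 of the duplicated constructs it ran from 34.0% to 43.6%. The promoter difference (-0.94 percentage points) turned to 0.0419 with 5 or more constructs, 2.28 with 15 or more and 3.39 for peaks of at least 300 bp, none past the threshold. The excess of TCACACC over flanks (5.09 percentage points) was 3.27 in the central 400 bp (exact p = 0.0906) and 2.77 for peaks of at least 300 bp (exact p = 0.621), 1.25 for TCACACCT (exact p = 0.0632), -1.05 for ACACCT and -0.556 for peaks in no other construct. The sequences of 6 letters above flanks (47) numbered 20 in the central 100 bp, 96 over all peaks and 0 by Fisher's exact test for the 36 peaks in no other construct. The constructs called as partners (18) numbered 1 at sites of exactly 1 other construct, 4 when stratified by breadth and 4 when also outside promoters, and 17 to 18 without a replicate. The genes with a peak (156) numbered 25 within 1 kb, 1264 within 100 kb and 88 outside widely shared sites. The odds ratio of TCACACC at sites of like breadth (1.75) was 1.45 at the centre of the merged site and 1.60 to 1.83 without a replicate, and it passed the threshold only in some of these. Where a value moved, the cause was not tested. The odds ratio of TCACAC (2.00) stayed between 1.66 and 2.02 and past the threshold under its 4 alternatives. In all, 28 of 53 alternatives counted as unchanged. For a test this meant the same direction and side of the threshold. For a share it meant a value inside the interval of the reported one, and for a count a value within a set ratio of it. No paired analysis was possible because BRACHYURY-HA has 1 list and shares no numbered pair with another construct. With 1 library and no read numbers, neither the error between cultures nor the effect of depth on which positions were called could be measured.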

Other observations

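The 36 BRACHYURY-HA peaks found in no other construct had a median width of 193 bp (173 to 922 bp). Of these, 15 lay in introns and 19 between genes, and 15 (41.7%, interval 25.5 to 59.2) were over 100 kb from a start. The letters TCACAC were in 4 of the 36, and AP-1 was in 3. The 15 peaks shared with exactly 1 construct had BHLHB8-HA in 4, RHOX11-HA in 4, CDX2-HA in 2, SOX2-HA in 2, and DLX1-HA, DLX6-HA and SIX6-HA in 1 each.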
